A study of Homo sapiens with 6 samples.

Results

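The genes described here are the receptor tyrosine kinases EGFR, ERBB2, ERBB3 and MET and the EGF-like ligands AREG, EREG, HBEGF and TGFA. They were taken by gene symbol from a deposited expression table of TOV21G, an established cell line from an ovarian clear cell carcinoma. All 8 symbols had 1 row each among the 16910 gene rows of the table, and all 8 passed the filter on low counts. The study sequenced 6 RNA libraries in 3 groups of 2, to ask what GYS1, the muscle-type glycogen synthase, and p53 do in this line. The group labelled NC has the genotype WT in the labels. The group labelled siGYS1 is TOV21G with GYS1 knock down, and the group labelled sip53 is TOV21G with p53 knock down. The control siRNA is taken to be what NC stands for. The labels give neither the siRNA sequences nor the time after transfection. They do not say whether the 2 libraries of a group were separate cultures, so p-values measure the spread between these libraries alone, which may be technical. All 3 groups are 1 cell line.

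Receptors of the EGFR family sit at the cell surface, pair when a ligand binds, and phosphorylate one another to start RAS-ERK and PI3K signalling. ERBB2 has no known ligand of its own and acts as a partner, and ERBB3 binds neuregulins but has little kinase activity. AREG and TGFA bind EGFR, while EREG and HBEGF bind EGFR and ERBB4. These ligands are made as membrane proteins and cut loose by proteases such as ADAM17. MET is the receptor of HGF and feeds the same pathways, and both ERBB2 and MET have been studied as drug targets in ovarian clear cell carcinoma.

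The promoters of 5 of the genes are shown. EREG and AREG are included because they are neighbours on chromosome 4, 56382 bases apart, whose transcripts differed in their pattern over the groups. EGFR, MET and HBEGF are the other genes that rose with sip53. Each line gives the 250 bases before the RefSeq start of the gene, 5′ to 3′ on the strand of the gene, from GRCh38.p14. EREG lies at chr4:74364895-74365144 on the plus strand, AREG at chr4:74444886-74445135 (plus), EGFR at chr7:55018767-55019016 (plus), MET at chr7:116671946-116672195 (plus) and HBEGF at chr5:140346604-140346853 (minus). Capitals mark the motifs found: the TATA box, the cyclic AMP response element (CRE) and the GC box.
EREG: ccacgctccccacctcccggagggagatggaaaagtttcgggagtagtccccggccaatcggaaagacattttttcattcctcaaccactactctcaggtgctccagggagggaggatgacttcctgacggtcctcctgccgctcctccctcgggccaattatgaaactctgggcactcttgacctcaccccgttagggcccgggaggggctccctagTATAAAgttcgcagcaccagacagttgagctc
AREG: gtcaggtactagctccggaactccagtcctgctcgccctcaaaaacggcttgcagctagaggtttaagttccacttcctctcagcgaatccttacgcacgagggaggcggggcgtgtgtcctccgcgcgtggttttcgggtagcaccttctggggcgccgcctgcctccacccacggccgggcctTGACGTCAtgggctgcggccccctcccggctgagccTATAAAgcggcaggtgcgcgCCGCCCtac
EGFR: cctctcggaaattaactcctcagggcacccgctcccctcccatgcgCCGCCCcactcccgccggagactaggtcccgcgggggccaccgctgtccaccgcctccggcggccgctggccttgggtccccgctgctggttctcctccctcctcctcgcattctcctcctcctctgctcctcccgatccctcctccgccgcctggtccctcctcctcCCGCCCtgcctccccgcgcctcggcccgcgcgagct
MET: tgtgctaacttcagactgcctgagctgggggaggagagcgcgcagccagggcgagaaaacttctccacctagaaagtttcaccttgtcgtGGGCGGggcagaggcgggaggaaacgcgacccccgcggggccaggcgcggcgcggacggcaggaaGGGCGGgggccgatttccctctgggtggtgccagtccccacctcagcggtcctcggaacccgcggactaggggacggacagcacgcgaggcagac
HBEGF: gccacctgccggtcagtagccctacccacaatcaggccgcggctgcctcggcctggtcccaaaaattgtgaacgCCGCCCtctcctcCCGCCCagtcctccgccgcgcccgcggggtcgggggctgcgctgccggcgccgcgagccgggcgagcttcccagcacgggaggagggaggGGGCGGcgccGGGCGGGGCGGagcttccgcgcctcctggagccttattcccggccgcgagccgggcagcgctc

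Of the 8 genes, 7 had a promoter in the RefSeq set and ERBB3 did not. EREG and AREG each had a TATA box (TATAAA, searched on the strand of the gene), which began 32 and 29 bases before the start and which 6.8% of 35116 RefSeq promoters of this length hold. The other 5 promoters held none. AREG also had the single CRE (TGACGTCA, both strands), 65 bases before its start, a motif in 1.65% of promoters. The GC box (GGGCGG, both strands), in 42.6% of promoters, was found 5 times in HBEGF, where 2 copies overlap, 3 times in TGFA, 2 times each in EGFR and MET, and 1 time in AREG. Neither EREG nor ERBB2 had one. The GC content was 58.0% for EREG, the same as the median of all promoters, and 65.2% to 76.4% for the other 6. AP-1 (TGACTCA, both strands, 4.2% of promoters), the core of the hypoxia response element (ACGTG, both strands, 18.5%) and the single decamer unit of the p53 element (by name, both strands, 5.57%) were in none of the 7 windows. A match or its absence describes these letters only.

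The level of GYS1, the check of the siGYS1 label, was 28.6 and 27.3 FPKM in the 2 NC libraries, 1.69 and 1.67 with siGYS1, and 30.4 and 31.4 with sip53. FPKM are fragments per kilobase of transcript after scaling to the size of the library. GYS1 was at 6.29% of NC with siGYS1 (log2 fold change -3.99, SE 0.11, edgeR quasi-likelihood adjusted p = 1.28e-07). The read counts of a library summed to between 17425000 and 18097337. Epithelial and clear cell markers summed to 661 to 677 FPKM with NC, 492 to 553 with siGYS1 and 529 to 540 with sip53, over 9 of 9 genes in the table. PAX8, a transcription factor of this lineage, was present at a mean of 150.1 FPKM with NC, and NAPSA stayed below 1 FPKM in every library. Fibroblast markers summed to 177 to 178, 145 to 155 and 92.6 to 93.0 FPKM in the same order, most of it COL1A2, with 3 of 6 below 1 FPKM throughout. COL1A2 fell with sip53 (log2 -0.88, SE 0.08), while DCN rose on counts, from 3 and 4 reads with NC to 70 and 57 (edgeR adjusted p = 2.88e-05), although its FPKM were 0.31 and 6.97 with NC and 4.47 and 3.12 with sip53. Endothelial markers, 3 of 4 in the table, summed to 0.35 to 0.48 FPKM with NC, 0.31 to 0.42 with siGYS1 and 0.93 to 1.53 with sip53. Of these PECAM1 rose 4.15-fold (edgeR adjusted p = 0.00261) and CDH5 2.84-fold (edgeR adjusted p = 0.00607) with sip53, both at no more than 1.0 FPKM in any library. Leukocyte markers, 3 of 5 in the table, summed to 1.18 to 1.92, 1.26 to 1.36 and 1.30 to 1.75 FPKM in NC, siGYS1 and sip53. In bulk RNA, fewer cells of a type and less RNA per cell cannot be told apart, and the part of these marker differences in the results below was not tested.

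Against NC, 4 of the 8 genes were higher with siGYS1, 1 was lower and 3 did not pass the test, at a Benjamini-Hochberg adjusted p below 0.05 over 13235 tested genes (edgeR quasi-likelihood). MET, EREG, AREG and EGFR rose and ERBB2 fell. Over all tested genes, 19.7% passed, 10.4% higher and 9.24% lower. That split of 1379 higher and 1223 lower became 667 and 1174 by limma on log2(FPKM + 1) and 1367 and 748 by DESeq2. The median log2 fold change of the 8 was 0.33, beside -0.01 over all tested genes. Without NC replicate 2 the number of all genes called fell from 2602 to 926, without NC replicate 1 to 1696, without sip53 replicate 1 or 2 to 1550 and 1571, and without siGYS1 replicate 2 it was 4260. The count of members among them stayed between 4 and 5 in these fits.

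With sip53, again 4 of the 8 were higher than NC and 1 was lower, and 3 did not pass. MET, EGFR, HBEGF and EREG rose and ERBB3 fell. Here 49.9% of all tested genes passed, 23.4% higher and 26.5% lower, so that a call of some kind was as common as its absence. The split of 3103 higher and 3502 lower became 1903 and 3487 by limma on log2(FPKM + 1). The median of the 8 was 0.52, beside -0.03 over all tested genes. Without sip53 replicate 1 the number of all genes called was 4271 in place of 6605. The siGYS1 and sip53 comparisons share the NC libraries, so the values of each are given side by side and their likeness is not a result.

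Set directly against each other, siGYS1 was above sip53 for 2 of the 8 (ERBB3 and AREG) and below it for 5 (HBEGF, EGFR, ERBB2, MET and EREG), and TGFA did not pass. Of all tested genes 43.4% passed, 22.5% higher and 20.9% lower with siGYS1. The number of all genes called was 5745, and 3416 or 3485 without sip53 replicate 1 or 2. The median of the 8 was -0.42, beside 0.01 over all tested genes.

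**Figure D1:**
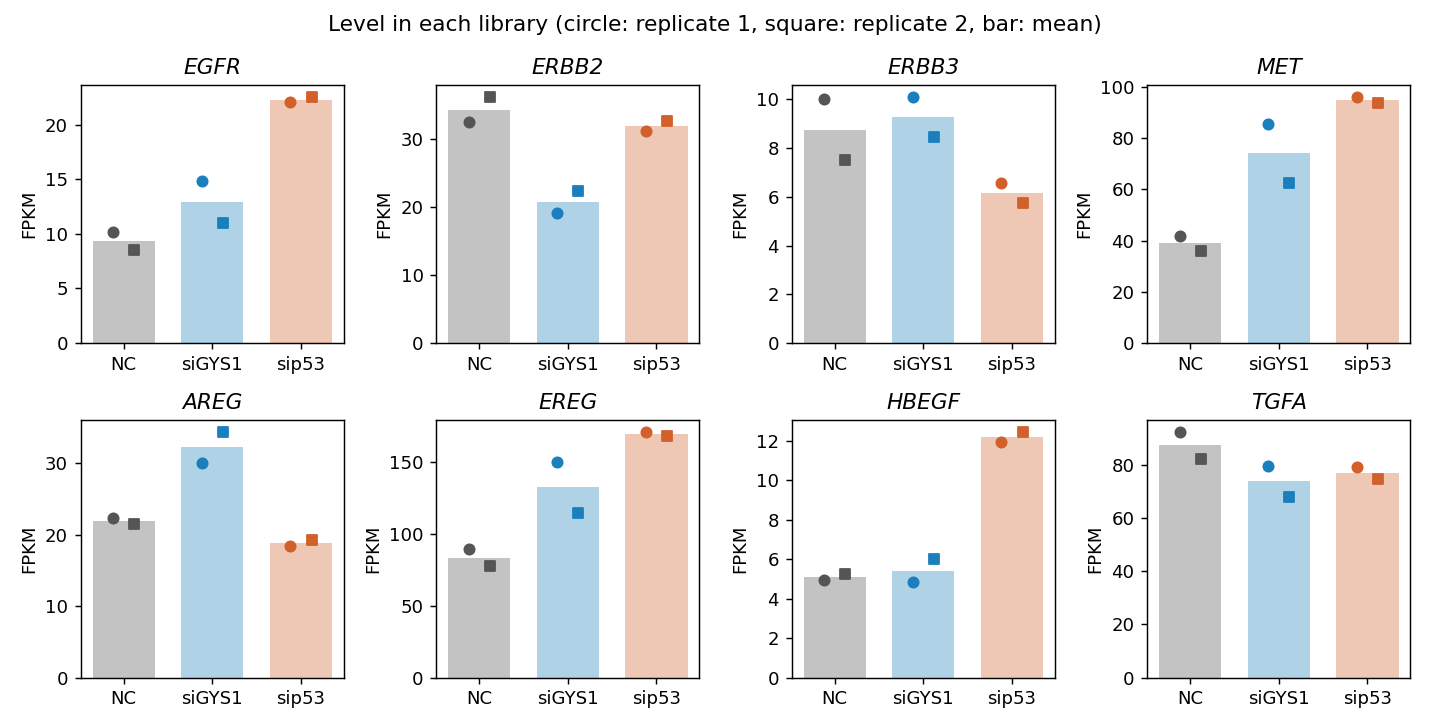
FPKM (linear axis from 0) of each of the 8 genes in the 6 libraries, by group, with a circle for replicate 1, a square for replicate 2 and a bar for the mean of 2. EGFR, MET, EREG and HBEGF stand highest with sip53, AREG stands highest with siGYS1, and ERBB2 stands lowest with siGYS1.

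EGFR, the founding receptor of the family, was at 10.2 and 8.5 FPKM in the NC libraries, 14.82 and 11.02 with siGYS1, and 22.03 and 22.51 with sip53. The 3 groups did not overlap, and the step from NC to sip53 was far larger than any gap between replicates, while the siGYS1 libraries lay well apart from each other. With sip53 EGFR was 2.54-fold NC (log2 fold change 1.35, SE 0.14, edgeR adjusted p = 5.57e-05) and passed in all 14 alternative analyses. With siGYS1 it was 1.43-fold NC (log2 0.52, SE 0.14, edgeR adjusted p = 0.0305), a call that depended on the method and on single libraries. The call was lost in both limma fits to FPKM (log2 0.42 and 0.45, limma adjusted p = 0.0798 and 0.0784). So it was without the filter on low counts (edgeR adjusted p = 0.0643) and with only both groups in the fit (edgeR adjusted p = 0.0743). It was lost without NC replicate 2 (log2 0.40, edgeR adjusted p = 0.203), without siGYS1 replicate 1 (log2 0.28, adjusted p = 0.105) and without sip53 replicate 1 or 2 (log2 0.52, edgeR adjusted p = 0.0764 and 0.0749). Over the main and the 14 alternative analyses it passed in 7 of 15, with log2 values from 0.28 to 0.74 and adjusted p from 5.14e-05 to 0.203. EGFR was lower with siGYS1 than with sip53 (log2 -0.83, SE 0.14, edgeR adjusted p = 0.00112). An annotated antisense transcript, EGFR-AS1, shares 186 exon bases with it and has no row of its own, and no source used here says whether counting was by strand.

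ERBB2, the ligandless partner, was at 32.5 and 36.1 FPKM with NC, 19.1 and 22.4 with siGYS1, and 31.2 and 32.7 with sip53. Both siGYS1 libraries lay below the other 4, and NC and sip53 overlapped. ERBB2 fell to 66.6% of NC with siGYS1 (log2 fold change -0.59, SE 0.10, edgeR adjusted p = 0.00386), and this call held in all 14 alternative analyses with log2 values from -0.72 to -0.47. With sip53 the difference was -0.08 on the log2 scale (95% interval -0.30 to 0.14, edgeR adjusted p = 0.515). The direct comparison placed siGYS1 below sip53 (log2 -0.50, SE 0.10, edgeR adjusted p = 0.00265). The exons of ERBB2 overlap those of MIEN1 by 571 bases and of PGAP3 by 194 bases on the opposite strand. With siGYS1, MIEN1 differed from NC by -0.26 (SE 0.14, edgeR adjusted p = 0.212) and PGAP3 by -0.39 (SE 0.15, edgeR adjusted p = 0.093), neither of which passed.

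ERBB3, the neuregulin receptor, was at 10 and 7.5 FPKM with NC, 10.1 and 8.47 with siGYS1, and 6.56 and 5.75 with sip53. The sip53 libraries were the lowest of the 6, and NC and siGYS1 overlapped. ERBB3 fell to 64.5% of NC with sip53 (log2 fold change -0.63, SE 0.14, edgeR adjusted p = 0.00458). This call was lost without sip53 replicate 2 (log2 -0.53, edgeR adjusted p = 0.0584) and held in the other 13 alternatives, over which log2 values ran from -0.79 to -0.44 and the lowest adjusted p was 5.6e-06. With siGYS1 the difference was 0.11 (95% interval -0.20 to 0.41, edgeR adjusted p = 0.615), with a sign that turned without NC replicate 2 (-0.05) or siGYS1 replicate 1 (-0.03). Between the knockdowns, siGYS1 was above sip53 (log2 0.74, SE 0.14, edgeR adjusted p = 0.00231). ERBB3 shares 31 exon bases with AC034102.2 on the same strand.

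MET, the HGF receptor, was at 41.8 and 36.0 FPKM with NC, 85.4 and 62.6 with siGYS1, and 96.0 and 93.6 with sip53. The groups did not overlap, and both knockdowns lay far above NC. MET rose 1.95-fold with siGYS1 (log2 fold change 0.96, SE 0.13, edgeR adjusted p = 0.00112) and 2.64-fold with sip53 (log2 1.40, SE 0.13, edgeR adjusted p = 2.17e-05), and both calls held in all 14 alternatives. The siGYS1 value ran from 0.77 to 1.15 over them and the sip53 value from 1.27 to 1.51. MET was lower with siGYS1 than with sip53 (log2 -0.44, SE 0.12, edgeR adjusted p = 0.0175). That difference was lost without sip53 replicate 1 (edgeR adjusted p = 0.105) or 2 (adjusted p = 0.0916) and in both limma fits to FPKM (adjusted p = 0.0663 and 0.0681), and passed in 11 of 15 analyses with adjusted p from 0.00014 to 0.105.

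AREG, amphiregulin, was at 22.3 and 21.5 FPKM with NC, 30.1 and 34.4 with siGYS1, and 18.5 and 19.2 with sip53. The siGYS1 libraries were the highest, and the sip53 libraries lay just under NC without overlap. AREG rose 1.55-fold with siGYS1 (log2 fold change 0.63, SE 0.10, edgeR adjusted p = 0.00337) and passed in all 14 alternatives, with log2 values from 0.53 to 0.74. With sip53 the difference of -0.11 did not pass (95% interval -0.35 to 0.13, edgeR adjusted p = 0.411). The 2 knockdowns differed from each other (log2 0.74, SE 0.10, edgeR adjusted p = 0.000383), again in all alternatives.

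EREG, epiregulin, was at 89.1 and 77.4 FPKM with NC, 149.9 and 114.6 with siGYS1, and 170.6 and 168.1 with sip53. No groups overlapped, and NC was lowest. EREG rose 1.65-fold with siGYS1 (log2 fold change 0.73, SE 0.12, edgeR adjusted p = 0.00421) and 2.18-fold with sip53 (log2 1.12, SE 0.13, edgeR adjusted p = 7.89e-05), and both calls held in all 14 alternatives. The gap between the knockdowns (log2 -0.40, SE 0.12, edgeR adjusted p = 0.0272) was less firm. It was lost without siGYS1 replicate 2 (log2 -0.22) or either sip53 library (log2 -0.38 without replicate 1 and -0.41 without replicate 2). With all libraries kept, it was lost in both limma fits to FPKM (limma adjusted p = 0.0523 and 0.0535). It was also lost without the filter on low counts (edgeR adjusted p = 0.0538). It passed in 9 of 15 analyses, with log2 values from -0.60 to -0.22. EREG passed against NC in both knockdowns, which share the NC libraries, and its neighbour AREG passed with siGYS1 and not with sip53. Set directly against each other, siGYS1 was below sip53 for EREG and above it for AREG (log2 0.74).

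HBEGF, heparin-binding EGF-like growth factor, was at 4.97 and 5.27 FPKM with NC, 4.86 and 5.99 with siGYS1, and 11.9 and 12.4 with sip53. The sip53 libraries stood above the other 4, and NC and siGYS1 overlapped. HBEGF rose 2.55-fold with sip53 (log2 fold change 1.35, SE 0.12, edgeR adjusted p = 2.47e-05), with log2 values from 1.11 to 1.40 over the 14 alternatives, all of which passed. With siGYS1 the difference was 0.15 (95% interval -0.15 to 0.44, edgeR adjusted p = 0.471). The direct comparison put siGYS1 at 43.4% of sip53 (log2 -1.20, SE 0.12, edgeR adjusted p = 6.05e-05), the lowest such share among the 8.

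TGFA, transforming growth factor alpha, was at 92.2 and 82.2 FPKM with NC, 79.6 and 67.9 with siGYS1, and 79.0 and 74.5 with sip53. Both knockdowns lay below NC without overlap and overlapped each other, but no comparison passed. With siGYS1 the difference was -0.25 (95% interval -0.45 to -0.04, edgeR adjusted p = 0.0859) and with sip53 -0.12 (95% interval -0.33 to 0.08, edgeR adjusted p = 0.292). The siGYS1 difference passed without siGYS1 replicate 1 (log2 -0.34, edgeR adjusted p = 0.0297), and its adjusted p ran from 0.0119 to 0.312 over all 15 analyses. Between the knockdowns the difference was -0.13 (95% interval -0.33 to 0.08, edgeR adjusted p = 0.299).

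**Figure D2:**
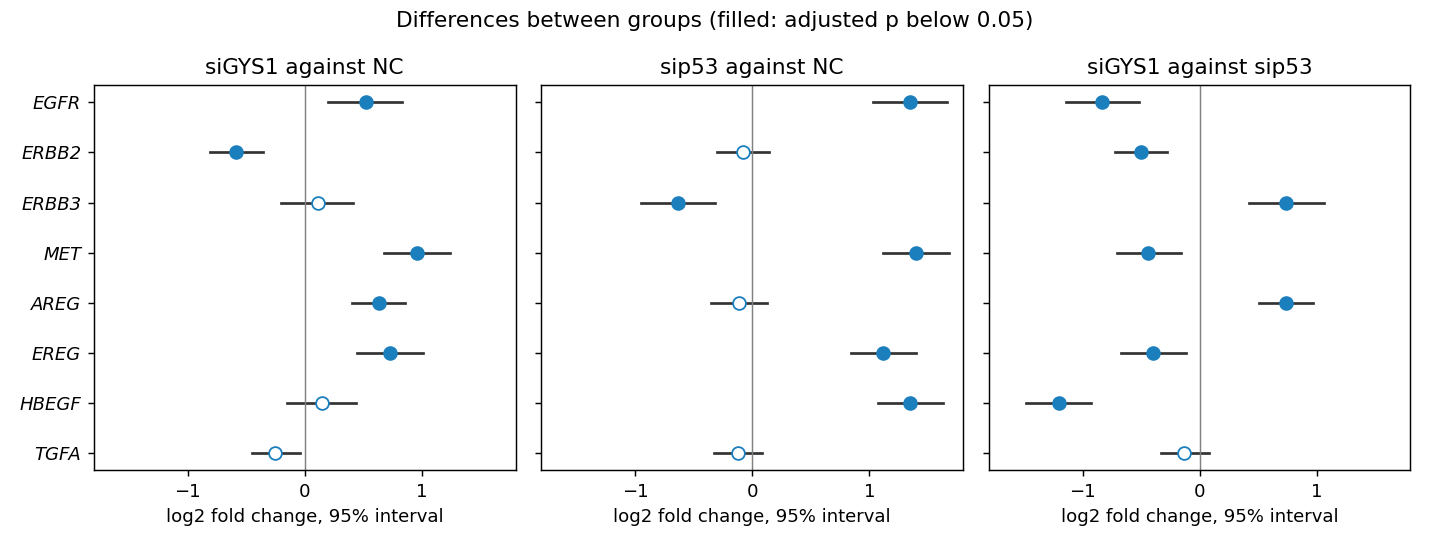
Log2 fold change (x axis) of each of the 8 genes (rows) in the 3 comparisons, from edgeR, with the 95% interval as a line and a filled point where the adjusted p was below 0.05. Of the 2 comparisons with NC, MET, EREG and EGFR are filled on the right in both, ERBB2 and AREG are filled with siGYS1 and open with sip53, HBEGF and ERBB3 are filled with sip53 and open with siGYS1, and TGFA is open in both.

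**Figure D3:**
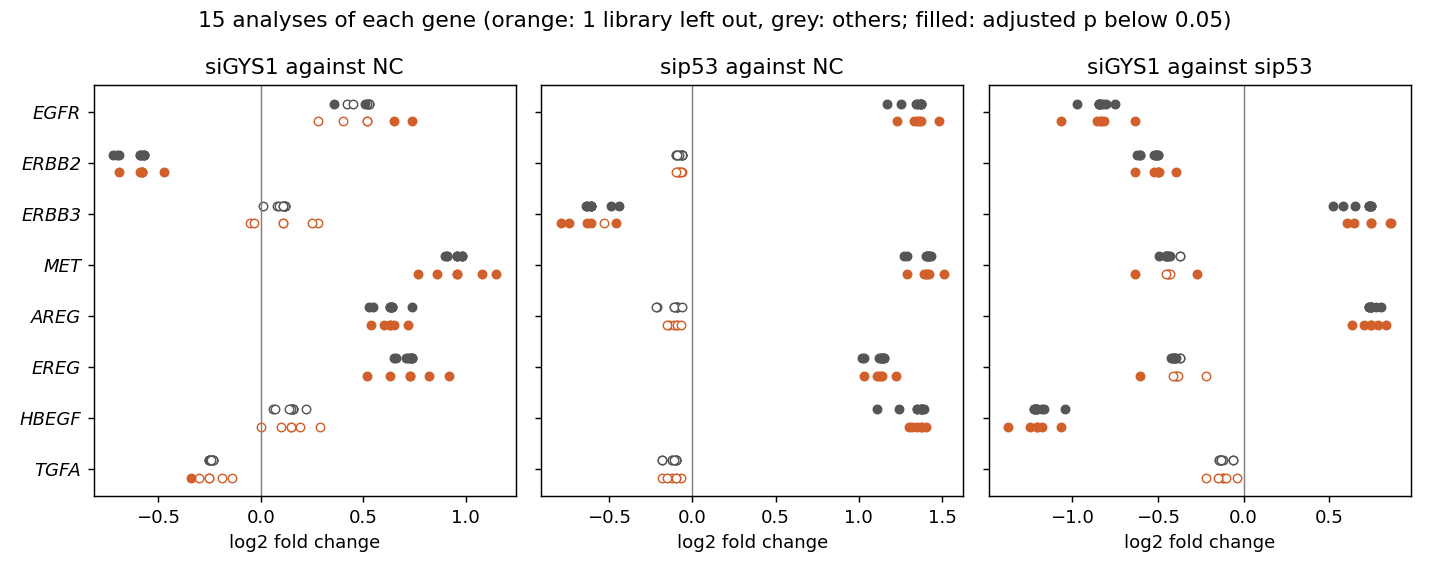
Log2 fold change (x axis) of each gene (rows) in the main analysis and 14 alternatives, with orange points for fits without 1 library, grey points for the others, and filled points at an adjusted p below 0.05. EGFR with siGYS1 has open and filled points between 0.28 and 0.74, whereas MET with sip53 is filled throughout from 1.27 to 1.51.

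Since FPKM are scaled to length, the levels can be set in order within a group. With NC, TGFA and EREG led (group means 87.2 and 83.3 FPKM, overlapping), followed by MET and ERBB2 (38.9 and 34.3, overlapping), AREG (21.9), EGFR and ERBB3 (9.35 and 8.75, overlapping) and HBEGF (5.12). TGFA was above 93.0% of the rows of the table and HBEGF above 43.7%. With siGYS1 the order was EREG (132.3), MET and TGFA (74.0 and 73.8, overlapping), AREG (32.2), ERBB2 (20.8), EGFR (12.9), ERBB3 (9.28) and HBEGF (5.43). With sip53 it was EREG (169.3), MET (94.8), TGFA (76.8), ERBB2 (31.9), EGFR (22.3), AREG (18.8), HBEGF (12.2) and ERBB3 (6.16), and no neighbours in that order overlapped. MET thus stood beside ERBB2 with NC and above it in both knockdowns, with a ratio of MET to ERBB2 of 1.29 and 0.996 in the NC libraries, 4.47 and 2.79 with siGYS1, and 3.07 and 2.87 with sip53.

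Among the 4 ligands the mixture shifted towards EREG. The summed ligand level was 209 and 186 FPKM with NC, 264 and 223 with siGYS1, and 280 and 274 with sip53. EREG made up 42.7% and 41.6% of that sum with NC, 56.7% and 51.4% with siGYS1, and 60.9% and 61.3% with sip53, with no overlap of NC and either knockdown. TGFA made up 44.2% and 44.1% with NC and 27.2% to 30.5% in the 4 knockdown libraries. AREG made up 10.7% and 11.5% with NC, 11.4% and 15.4% with siGYS1, and 6.59% and 7.01% with sip53, so that siGYS1 overlapped NC and sip53 lay below both. The ratio of EREG to AREG was 3.99 and 3.60 with NC, 4.99 and 3.33 with siGYS1, and 9.24 and 8.75 with sip53. Between the receptors, the ratio of EGFR to ERBB2 was 0.314 and 0.235 with NC, 0.776 and 0.492 with siGYS1, and 0.705 and 0.689 with sip53. These shares and ratios are descriptions of 2 libraries a group, with no test.

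Several of the 8 genes have a long annotated exon length, and the replicates differed by that length. The exons annotated for EGFR in GENCODE 29 cover 12521 bases, more than those of 94.3% of tested genes. Those of ERBB2 cover 10321, of ERBB3 9039, of MET 7039, of EREG 5717, of TGFA 4963, of HBEGF 3018, and of AREG 1648, with 4.94% of tested genes shorter than AREG. Across 11172 genes with a log2 CPM (counts scaled to library size) of at least 2, the difference of siGYS1 replicate 1 from the mean of the 6 libraries had a Spearman correlation of 0.41 with exon length, and that of NC replicate 2 one of -0.29. The other 4 libraries were between -0.08 and 0.04. The log2 fold change of siGYS1 against NC itself had a Spearman correlation of 0.28 with exon length, beside 0.04 for sip53 against NC. These correlations are across genes, which are not independent. The gap between replicates 1 and 2 in siGYS1 was 0.44 in log2 CPM for EGFR, 0.39 for EREG, 0.37 for MET, 0.26 for ERBB3 and 0.18 for TGFA, and -0.19 for AREG, -0.24 for ERBB2 and -0.30 for HBEGF. With offsets that take the length trend out of each library, the siGYS1 difference from NC was 0.36 for EGFR, 0.91 for MET, 0.71 for EREG, 0.74 for AREG and -0.69 for ERBB2, all with an edgeR adjusted p of at most 0.0135. ERBB2, whose annotated exons cover nearly as many bases as those of EGFR, moved against the trend in exon length between the siGYS1 replicates. Exon length joins all annotated transcripts of a gene and can exceed the length of the transcript measured. In NC replicate 1, 2109 reads of ERBB2 gave 32.46 FPKM, and 1752 reads of EGFR gave 10.19 FPKM. The length behind the ERBB2 value was thus much shorter than for EGFR. The trend and the offsets by that shorter length were not tested.

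**Figure D4:**
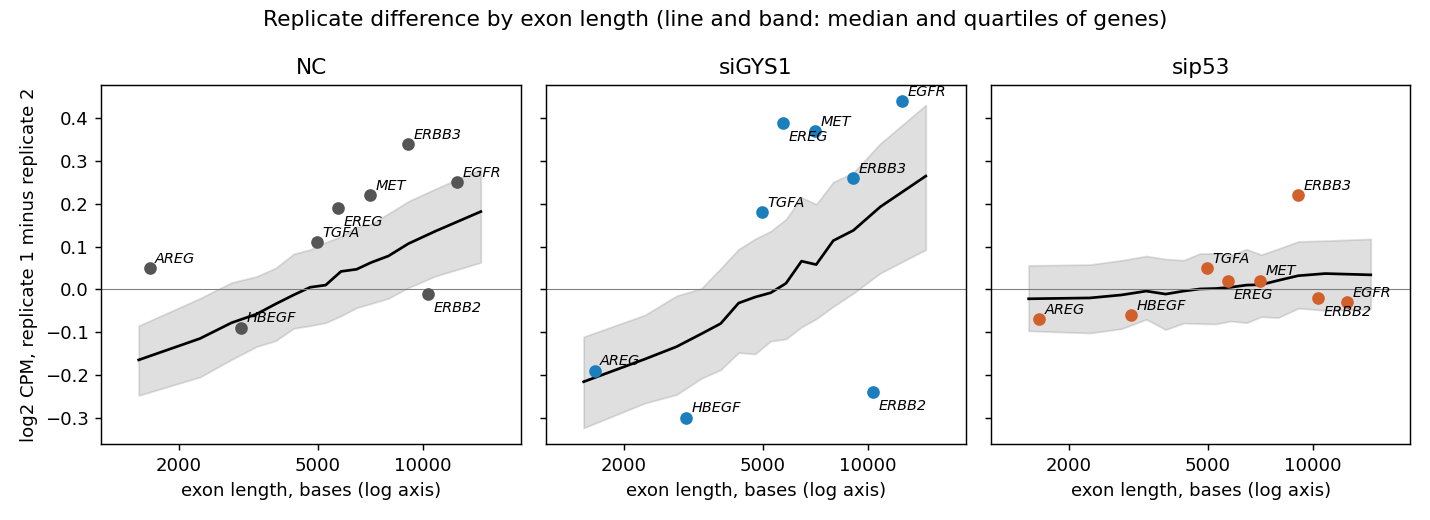
Difference in log2 CPM between replicate 1 and replicate 2 (y axis) against exon length in bases (log x axis) for the 8 genes in each group, with the median (line) and quartiles (band) of 11172 genes. The line climbs with length for NC and siGYS1 and is nearly flat for sip53, and in siGYS1 EGFR lies at 0.44 and ERBB2 at -0.24.

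Of 11 genes for other receptors and ligands of these families (ERBB4, MST1R, EGF, BTC, EPGN, NRG1 to NRG4, HGF and MST1), 7 were tested. With siGYS1 none rose and 2 fell (28.6% passed, beside 19.7% of all tested genes), with a median log2 fold change of -0.16. With sip53 1 rose and 4 fell (71.4% passed, beside 49.9%), with a median of -0.38. HGF, the ligand of MET, was at 0.07 FPKM in NC replicate 1 and listed at 0 in the other 5 libraries, and was not tested. NRG1, a ligand of ERBB3 and ERBB4, was the most abundant of the other ligands at 26.0 and 25.2 FPKM with NC, 28.1 and 23.3 with siGYS1, and 18.6 and 17.3 with sip53. MST1R, the receptor closest to MET, fell with siGYS1 (log2 -0.74, SE 0.13, edgeR adjusted p = 0.0044) and with sip53 (log2 -0.38, SE 0.13, edgeR adjusted p = 0.03). Its ligand MST1 fell with siGYS1 (log2 -0.44, SE 0.10, edgeR adjusted p = 0.0177). MST1 did not pass by DESeq2 (DESeq2 adjusted p = 0.105), or without NC replicate 1 or 2 (log2 -0.45 and -0.44). ERBB4, the remaining receptor of the family, fell with sip53 (log2 -1.38, SE 0.17, edgeR adjusted p = 0.000117), from 7.51 and 5.03 FPKM with NC to 4.27 and 3.23. On log2(FPKM + 1) its difference was -0.60, and its count per FPKM varied more between libraries than that of 99.2% of genes. EGF was near 0, at 0.08 and 0.03 FPKM with NC and 0.17 and 0.13 with sip53 (log2 1.76, SE 0.51, edgeR adjusted p = 0.0168). It did not pass by DESeq2 (DESeq2 adjusted p = 0.18), or once NC replicate 2 or sip53 replicate 1 was left out (log2 1.45 and 1.52). NRG4 was also near 0, with group means of 0.295 FPKM with NC and 0.11 with sip53 (log2 -1.33, SE 0.46, edgeR adjusted p = 0.0342). It did not pass by DESeq2 (DESeq2 adjusted p = 0.259) or without the filter on low counts (edgeR adjusted p = 0.0535). Nor did it pass without any 1 of the NC or sip53 libraries (log2 -1.78 to -1.0). The count of 2 became 1 without either NC library, and the count of 5 with sip53 became 3 without NC replicate 1 and 2 without NC replicate 2 or either sip53 library. The 2 left after dropping sip53 replicate 2 were 1 higher and 1 lower.

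Proteases that release the ligands or activate HGF, their inhibitors and other regulators of them formed a list of 15 genes, of which 12 were tested. With siGYS1 1 rose and 2 fell (25% passed, beside 19.7% of all tested genes, median -0.08), and with sip53 4 rose and 2 fell (50% passed, beside 49.9%, median 0.23). The sip53 share was that of all tested genes. ADAM17, the main sheddase of AREG, EREG, HBEGF and TGFA, was at 18.4 and 15.1 FPKM with NC, 19.9 and 17.2 with siGYS1, and 34.2 and 31.8 with sip53. ADAM10, the sheddase of EGF and BTC, was at 170.4 and 141.4 FPKM with NC, 238.1 and 161.4 with siGYS1, and 70.4 and 56.0 with sip53. With sip53 these 2 proteases moved in opposite directions, ADAM17 up (log2 1.08, SE 0.11, edgeR adjusted p = 4.65e-05) and ADAM10 down (log2 -1.30, SE 0.11, edgeR adjusted p = 1.34e-05). With siGYS1 neither passed (log2 0.19 and 0.21, edgeR adjusted p = 0.266 and 0.183). SPINT1, an inhibitor of the proteases that activate HGF, fell with siGYS1 (log2 -0.74, SE 0.09, edgeR adjusted p = 0.00101) and with sip53 (log2 -1.11, SE 0.10, edgeR adjusted p = 1.72e-05). With siGYS1 its relative SPINT2 fell as well (log2 -0.48, SE 0.10, edgeR adjusted p = 0.0127) and the protease ST14 rose (log2 0.64, SE 0.14, edgeR adjusted p = 0.0143). ST14 rose with sip53 too (log2 0.59, SE 0.14, edgeR adjusted p = 0.00776). With siGYS1 the SPINT2 call was lost without NC replicate 2 (log2 -0.42), and the ST14 call without NC replicate 1 (log2 0.61) or 2 (log2 0.67). The ST14 call was also lost by DESeq2 (DESeq2 adjusted p = 0.0822) and in both limma fits to FPKM (limma adjusted p = 0.0655 and 0.0696). Without NC replicate 2 the count of 3 was 1.

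Of 18 tested genes that restrain the receptors or carry them to degradation, 6 rose and none fell with siGYS1 (33.3% passed, beside 19.7% of all tested genes, median 0.18). With sip53 8 rose and 1 fell (50% passed, beside 49.9%, median 0.23). ERRFI1, which binds and inhibits the EGFR kinase, was at 21.3 and 20.4 FPKM with NC, 30.8 and 30.0 with siGYS1, and 37.4 and 36.3 with sip53. It rose in both (log2 0.59, SE 0.09, edgeR adjusted p = 0.00216 with siGYS1, and log2 0.91, SE 0.09, edgeR adjusted p = 3.28e-05 with sip53). PTPRJ, a receptor phosphatase that acts on EGFR and MET, rose likewise (log2 0.79, edgeR adjusted p = 0.00196, and log2 1.57, edgeR adjusted p = 6.5e-06). SH3KBP1, which links CBL to receptor uptake, was the 1 that fell with sip53, from 19.5 and 18.2 FPKM to 4.63 and 4.79 (log2 -1.98, SE 0.09, edgeR adjusted p = 6.49e-07). With siGYS1 it was higher than NC (log2 0.27, SE 0.08, edgeR adjusted p = 0.0494). CBL, the ubiquitin ligase of EGFR and MET, rose with sip53 (log2 0.49, SE 0.14, edgeR adjusted p = 0.0178) and with siGYS1 (log2 0.51, SE 0.14, edgeR adjusted p = 0.036). The siGYS1 call was lost without NC replicate 2 (log2 0.37), siGYS1 replicate 1 (log2 0.27) or either sip53 library (log2 0.51). It was also lost in both limma fits to FPKM (limma adjusted p = 0.0941 and 0.0936). The same held without the filter on low counts (edgeR adjusted p = 0.0729) and with only both groups in the fit (edgeR adjusted p = 0.0813). The siGYS1 count of 6 became 2 without NC replicate 2 and 3 without NC replicate 1, siGYS1 replicate 1 or either sip53 library.

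Downstream of the receptors, a list of 17 genes held adaptors and also the transcription factors STAT3 and STAT5B. Of these 17, 2 rose and 1 fell with siGYS1 (17.6% passed, beside 19.7% of all tested genes, median 0.18). With sip53 6 rose and 3 fell (52.9% passed, beside 49.9%, median 0.18), and both shares were near those of all tested genes. GRB7, an adaptor whose gene lies near ERBB2, fell with siGYS1 (log2 -0.57, SE 0.13, edgeR adjusted p = 0.0128) and with sip53 (log2 -1.16, SE 0.13, edgeR adjusted p = 8.81e-05). Its siGYS1 call was lost without NC replicate 2 (log2 -0.49), by DESeq2 (DESeq2 adjusted p = 0.061) and in both limma fits to FPKM (limma adjusted p = 0.056 and 0.0597). GAB1, the docking protein of MET, passed with siGYS1 (log2 0.58, SE 0.14, edgeR adjusted p = 0.0179). That call was lost without NC replicate 2 (log2 0.47) and in both limma fits to FPKM (limma adjusted p = 0.0792 and 0.0803). CRK rose with sip53 (log2 0.67, SE 0.09, edgeR adjusted p = 0.000303) and with siGYS1 (log2 0.35, SE 0.09, edgeR adjusted p = 0.0269). Its siGYS1 call was lost without either NC library (log2 0.39 and 0.31), siGYS1 replicate 1 (log2 0.26) or either sip53 library (log2 0.35). It was also lost in both limma fits to FPKM (limma adjusted p = 0.0716 and 0.0731) and with only both groups in the fit (edgeR adjusted p = 0.0747). With sip53 the transcription factor STAT5B (log2 1.63, SE 0.20, edgeR adjusted p = 0.000139) and the adaptor GRB10 (log2 1.52, SE 0.10, edgeR adjusted p = 2.85e-06) rose. STAT5B was low, at 0.82 and 0.55 FPKM with NC and 1.96 and 2.0 with sip53. Its log2 value ran from 0.83 to 1.92 over the 15 analyses, all of which passed. The siGYS1 count of 3 was 0 without NC replicate 2 and 7 without siGYS1 replicate 2.

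In the RAS-ERK and PI3K core, 5 of 21 genes rose and none fell with siGYS1 (23.8% passed, beside 19.7% of all tested genes, median 0.18). With sip53 9 rose and 1 fell (47.6% passed, beside 49.9%, median 0.24), and both shares were near those of all tested genes. With siGYS1 the split was 2 higher and 1 lower in both limma fits, and 6 higher and 2 lower with length-corrected offsets. NRAS, a RAS protein, was at a mean of 34.5 FPKM with NC, 50.5 with siGYS1 and 21.8 with sip53. It rose with siGYS1 (log2 0.61, SE 0.10, edgeR adjusted p = 0.00328) and was the gene that fell with sip53 (log2 -0.57, SE 0.10, edgeR adjusted p = 0.0012). The kinase BRAF rose with siGYS1 (log2 0.60, SE 0.12, edgeR adjusted p = 0.00753), but on log2(FPKM + 1) the difference was 0.21 and did not pass (limma adjusted p = 0.377). PIK3R1, a regulatory subunit of PI3K (log2 1.03, SE 0.18, edgeR adjusted p = 0.00099), and the ERK kinase MAP2K1 (log2 0.90, SE 0.09, edgeR adjusted p = 3.95e-05) rose with sip53. MAP2K1 rose with siGYS1 as well (log2 0.34, SE 0.09, edgeR adjusted p = 0.028). The siGYS1 count of 5 was 11 without siGYS1 replicate 2 (10 higher and 1 lower), 3 without NC replicate 1, and 2 without NC replicate 2, siGYS1 replicate 1 or either sip53 library. The sip53 count of 10 was 6 without NC replicate 1 and 5 without NC replicate 2 or either sip53 library.

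Transcripts that ERK signalling is known to induce went both ways. Of 19 tested, 4 rose and 6 fell with siGYS1 (52.6% passed, beside 19.7% of all tested genes, median -0.09). With sip53 8 rose and 7 fell (78.9% passed, beside 49.9%, median 0.20). EGR1, an immediate early transcription factor, was at 11.2 and 11.8 FPKM with NC, 3.33 and 2.61 with siGYS1, and 2.21 and 2.38 with sip53. It fell in both (log2 -1.89, SE 0.13, edgeR adjusted p = 5.72e-05 with siGYS1, and log2 -2.22, SE 0.14, edgeR adjusted p = 2.06e-06 with sip53). DUSP5, a nuclear phosphatase of ERK, was at 48.1 and 50.3 FPKM with NC, 83.6 and 92.0 with siGYS1, and 197.5 and 167.7 with sip53, and rose in both (log2 0.90, edgeR adjusted p = 0.000575, and log2 1.99, edgeR adjusted p = 9.52e-07). ETV5, an ETS factor, fell with siGYS1 (log2 -1.0, SE 0.09, edgeR adjusted p = 0.000133, and -0.50 on log2(FPKM + 1)). With sip53 ETV5 rose (log2 0.32, SE 0.08, edgeR adjusted p = 0.01). SPRY1, a feedback inhibitor of receptor signalling, fell with sip53 (log2 -1.72, SE 0.10, edgeR adjusted p = 1.29e-06). It fell with siGYS1 as well (log2 -0.85, SE 0.09, edgeR adjusted p = 0.000414).

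**Figure D5:**
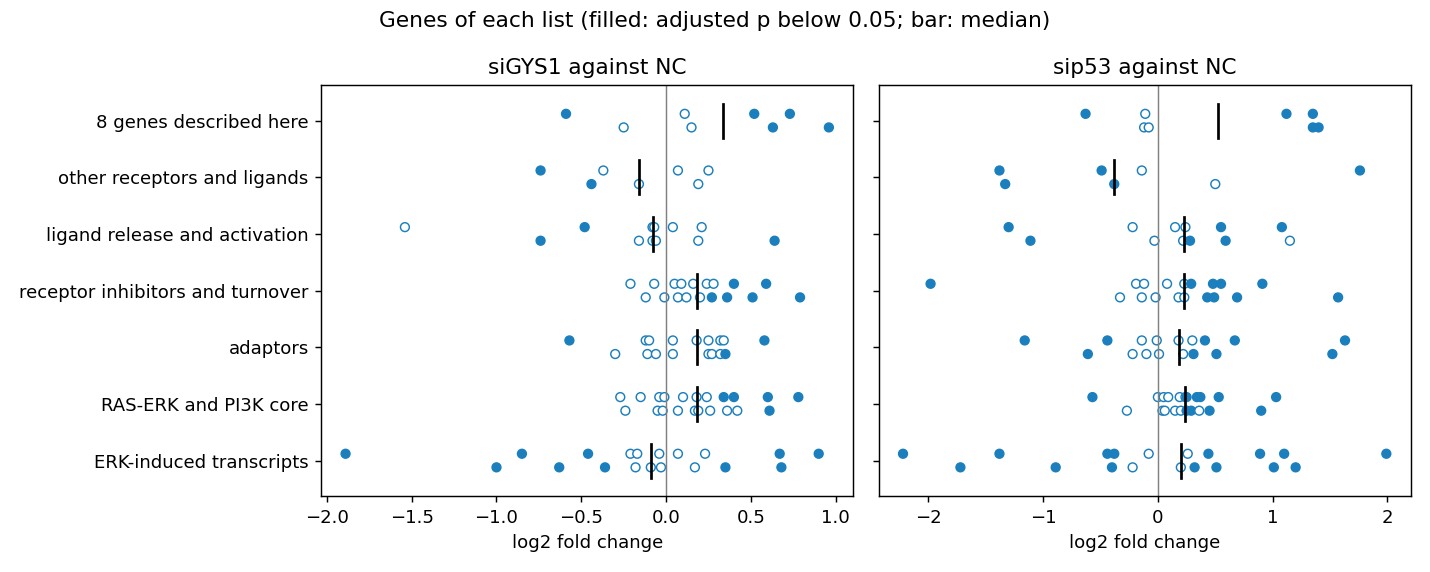
Log2 fold change (x axis) of the tested genes of the 6 pathway lists and of the 8 genes described here (rows), for siGYS1 and for sip53 against NC, with filled points at an adjusted p below 0.05 and a bar at the median of each row. The 8 genes have medians of 0.33 and 0.52, and the ERK-induced transcripts spread to both sides, from EGR1 at -2.22 to DUSP5 at 1.99 with sip53.

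For each of the 8 genes, the genes of most similar pattern, up to 2 each, were found among 11797 genes by the Euclidean distance over the 4 knockdown libraries of log2(FPKM + 1) relative to the NC mean. They were MICAL2 and EFCAB2 for EGFR (distances 0.11 and 0.13), TWF2 for ERBB2 (0.09), CHAMP1 and USP54 for ERBB3 (0.05 and 0.06), and ENTPD7 and DSG2 for MET (0.18 and 0.19). For the ligands they were TUBD1 and RELL1 for AREG (0.14 and 0.16), NOCT and MTMR9 for EREG (0.14 and 0.15), IL32 for HBEGF (0.14), and SCD and ERLEC1 for TGFA (0.05 and 0.06). With a pseudocount of 0.1, an alternative chosen after seeing the data, the distances of IL32 and NOCT were 0.28 and 0.32. DSG2, a desmosomal cadherin, differed from NC by 0.89 with siGYS1 and 1.48 with sip53 on the log2 scale, beside 0.96 and 1.40 for MET. These genes were picked for their likeness in the same libraries, so the likeness is not a result.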

How the data were processed

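Poly(A) RNA of TOV21G was sequenced in 6 libraries, per the labels' protocols, which describe the steps in general terms. Per the file headers, each library has a column of read counts, a column of normalized read counts, FPKM and TPM in the deposited table. The authors' read counts are expected counts, as 16.8% to 18.1% of the values of a library are not whole. The deposited normalized read count is a normalized signal, and it and the deposited TPM were not used. The submitters' processing notes name the aligners STAR, HISAT2 and TopHat, the counters featureCounts, HTSeq and Salmon, and edgeR and DESeq2, with no versions or roles. They also name mm10, a mouse build, whereas the identifiers in the table are human, and 16830 of the 16910 were found in GENCODE 29. The build the authors used is otherwise not given in the sources used here.

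Expected counts were rounded to whole numbers and fitted in R 4.3.3 with edgeR 4.0.16, using filterByExpr (minimum count 10, 3675 genes removed), TMM factors, and glmQLFit and glmQLFTest, all 6 libraries in 1 fit with 3 residual degrees of freedom. P-values were adjusted by Benjamini-Hochberg over 13235 genes, and the threshold was 0.05. The SE is the absolute log2 fold change over the square root of F. The fit was also run on simulated counts with set fold changes. These were drawn without the length trend between libraries, so that run cannot say how the fit handles it. Alternatives used DESeq2 1.42.0, limma 3.58.1 on log2(FPKM + 1) or log2(FPKM + 0.1) for genes that average 1 FPKM or more, other filters, samples and offsets, and each library left out.

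Members, lists and naming rule were chosen with earlier results of these data known. The rule names the 8 genes, GYS1, per list and comparison with NC up to 3 genes of largest change among those that passed, ADAM10, ADAM17, ERRFI1, and the 2 genes of nearest pattern. HGF, NRG1, PAX8, NAPSA, COL1A2, DCN, PECAM1, CDH5 and the genes that overlap a member were named outside it, with their values seen. The transcript targeted by sip53 and a few genes under this rule are not reported here, and the sip53 label was not checked.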

Additional observations from a re-analysis of the deposited data

How the results depend on the processing

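Over the 8 genes and 14 alternatives, 111 values kept direction and call for sip53 against NC and 1 lost its call. For siGYS1 against NC 100 did, 8 lost and 2 gained a call, and 2 turned sign (ERBB3, -0.05 without NC replicate 2 and -0.03 without siGYS1 replicate 1, neither of which passed). For siGYS1 against sip53 102 did and 10 lost the call. With 2 libraries a group, leaving 1 out assumes that the lone library varies like the other groups.

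All genes called for siGYS1 against NC numbered 1577 with only both groups in the fit and 926 to 4260 with 1 library left out, for sip53 against NC 4271 to 7621 with 1 left out, and for siGYS1 against sip53 3416 to 6337. For the lists with siGYS1, the RAS-ERK and PI3K core had 3 calls in both limma fits, 2 with only both groups, 8 with length-corrected offsets and 2 to 11 with 1 library left out. The adaptors had 0 in both limma fits, 5 with length-corrected offsets and 0 to 7 with 1 left out. The inhibitors and turnover genes had 2 in both limma fits, 3 without the filter or with only both groups, and 2 to 7 with 1 left out. The release and activation genes had 1 to 4 and the other receptors and ligands 1 to 3 with 1 left out, and the latter 1 by DESeq2. With sip53, the core had 4 in both limma fits and 5 to 13 with 1 left out, and the other receptors and ligands had 2 by DESeq2 and in both limma fits, and 2 to 5 with 1 left out. For sip53 against NC, the median of the genes fitted on FPKM was -0.11 (pseudocount 0.1). It was -0.03 over the 13235 genes fitted on counts. The filter on genes and the scaling both differ between these fits.

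Whether the replicate numbers pair the samples is not known. Deviations of same-numbered libraries correlated at 0.28 (NC and siGYS1), -0.02 (NC and sip53) and 0.13 (siGYS1 and sip53). The difference of replicate 1 from replicate 2 had a Spearman correlation with exon length of 0.51 in NC, 0.54 in siGYS1 and 0.13 in sip53. With the replicate number as a block, 4662 genes were called for siGYS1 against NC, with 10 adaptors and 9 genes of the core among them, and TGFA passed (adjusted p = 0.0119, edgeR). The cause of these differences was not tested.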
